A study of Mus musculus with 6 samples.

Results

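The Ifi200 family is a set of interferon-inducible genes that lie side by side on mouse chromosome 1. Its members were taken as the rows of the count table whose Entrez gene ID belongs to 1 of 10 named genes: Ifi203, Ifi204, Ifi205, Ifi209, Ifi211, Ifi213, Ifi214, Mnda, Mndal and Aim2. RefSeq lists Mnda as another name of Ifi211, so the 10 names gave 9 rows of the 27179 in the table. The data are RNA sequencing of mouse acute myeloid leukemia cells of the line A/E9a;NRASG12D, which combines a spliced RUNX1-RUNX1T1 fusion with a mutant NRAS, carried in C57BL/6 mice. One group received vehicle and the other panobinostat, an inhibitor of histone deacetylases, for 3 days, and viable GFP-positive cells were then sorted from the spleen. Each group has 3 libraries, and both carry the same leukemia. The sources used here give no dose, no age of the mice and no promoter for the oncogenes, and do not say whether the line is 1 clone.

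Proteins of this family usually join a pyrin domain, which binds other pyrin domains, to HIN domains that bind DNA. AIM2 is the best understood of them: it senses double-stranded DNA in the cytosol and recruits the adaptor ASC, encoded by Pycard, and caspase-1 to form an inflammasome. Other members act largely in the nucleus and have been linked to growth arrest, to myeloid differentiation and to control of transcription. Many of the genes are switched on by type I interferon, and several are best known from macrophages and B cells.

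Total counts ran from 25794869 to 32571961 per library, and levels are given as CPM, counts scaled to library size with TMM factors. On the unadjusted scale 1 count equalled 0.0307 to 0.0388 CPM. Libraries are named by the first number of their table column, as vehicle libraries 2, 3 and 4 and panobinostat libraries 1, 5 and 6, and values are listed in that order throughout. The labels do not tie the 3 libraries of either group to separate mice, so p-values cover the spread among these libraries alone, and that spread may be technical. Runx1t1, a gene of the named fusion, was at 358 ± 72.5 CPM in vehicle and 615 ± 245 CPM with panobinostat (SD, n = 3 each). It was chosen after its value was seen, so this is a description and no check of the label. Panobinostat library 1 was the highest library for 7 of the 9 Ifi200 rows. Values without it are given where they change a call or shift a fold strongly, and smaller shifts of other folds are not all listed. In bulk RNA, fewer cells that hold a transcript and less of it per cell cannot be told apart.

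The members fill a stretch of 682 kb on chromosome 1 (RefSeq, GRCm38), from Aim2 at 173349547 to Ifi205 at 174031755. RefSeq places 19 genes there, of which 13 have a row in the table. The upstream regions of the members show what several of them share. Below are 60-base stretches from RefSeq promoters (GRCm38.p6), each on the strand of its gene, 5′ to 3′, and all upstream of the start of a tabulated transcript. They are shown because the capitals mark the core of the interferon-stimulated response element, the site bound by interferon-activated factors, searched on both strands as GAAA, any 2 bases and GAAA.

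Ifi214, chr1:173536002-173536061, minus strand: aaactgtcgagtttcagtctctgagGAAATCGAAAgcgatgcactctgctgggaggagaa
Ifi213, chr1:173599311-173599370, minus strand: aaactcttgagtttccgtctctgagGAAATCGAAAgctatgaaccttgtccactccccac
Mndal, chr1:173880189-173880248, minus strand: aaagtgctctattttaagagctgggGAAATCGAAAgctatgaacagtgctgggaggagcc
Ifi203, chr1:173942493-173942552, minus strand: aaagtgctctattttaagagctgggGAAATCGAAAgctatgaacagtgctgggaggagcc
Ifi211, chr1:173913049-173913108, minus strand: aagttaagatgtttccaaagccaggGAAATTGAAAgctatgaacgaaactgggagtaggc
Ifi205, chr1:174031855-174031914, minus strand: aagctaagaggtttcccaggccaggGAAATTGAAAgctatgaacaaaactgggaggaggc
Ifi209, chr1:173630755-173630814, plus strand: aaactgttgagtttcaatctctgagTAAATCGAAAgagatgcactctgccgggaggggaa

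In Ifi209 the capitals mark the stretch nearest to GAAATCGAAA, which is no match; it differs by G1T, counted from the first base of that word. Ifi204 had no tabulated promoter and was not searched. Of the 8 member genes in the promoter table, 6 held the core in at least 1 promoter window of 300 bases (250 before and 50 after the start). Counted by gene over the whole promoter table, 1079 of 27025 held it. Counted by promoter of the same length, it was in 7 of 10 for the members and 1131 of 32851, or 3.44%, for all. These genes are copies of each other, so the matches are not independent. The stretches of Mndal and Ifi203 were identical in all 60 bases, and Ifi211 and Ifi205 matched in 54 of 60. The exact word GAAATCGAAA, on either strand, was found in 16 of the 32851 promoters, and these included promoters of 7 genes of the cluster: Ifi203, Mndal, Ifi213 and Ifi214 among the members, and Ifi206, Ifi207 and Ifi208 beside them. Ifi211 and Ifi205 differed from that word by C6T and shared GAAATTGAAA, which 38 promoters held. The words were compared after the expression values were seen. The other searched motif, TTCNNNGAA of the interferon-gamma-activated site, palindromic and so read once, was in no member promoter and in 8.30% of all promoters.

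The tabulated promoter of Aim2 lies inside its RefSeq span, so the start of that span, at 173349547, was not searched. In that promoter Aim2 carried neither motif. Its promoter upstream of the start is shown as the contrast, in the same orientation: chr1:173420354-173420603, plus strand, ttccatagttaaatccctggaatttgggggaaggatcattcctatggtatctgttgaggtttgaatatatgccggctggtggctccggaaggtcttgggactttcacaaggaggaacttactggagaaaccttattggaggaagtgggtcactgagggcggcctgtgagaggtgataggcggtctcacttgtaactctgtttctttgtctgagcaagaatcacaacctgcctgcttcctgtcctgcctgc. A match is a description of letters, and a missing match says only that they are not in this window.

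The comparison asked how the transcripts of the family differed after panobinostat. Of the 9 rows, 7 passed the filter on low counts and were tested, and 4 of them rose: Aim2, Ifi211, Ifi205 and Mndal. Over all 12916 tested genes, 11.3% were called higher and 9.72% lower, 21.0% in all, in edgeR (quasi-likelihood test, Benjamini-Hochberg adjusted p under 0.05). The tested members Ifi204, Ifi203 and Ifi209 did not pass, and Ifi213 and Ifi214 were too low to test. All 9 rows, those not tested included, had every panobinostat value above every vehicle value. Among tested genes this held for all 7 members and for 21.9% of all genes. The median log2 fold change of the 7 tested members was 1.27, against 0.01 for all tested genes. A low gene can pass the filter through its higher group alone, and Ifi211 and Ifi205 did. None of their vehicle libraries reached its minimum, so they could pass only by being higher with panobinostat. The separation of their groups was thus largely set by the filter. The number of members called, the number with groups apart and the median are descriptions only. The other 5 tested members had a median of 1.10, all had their groups apart, and Aim2 and Mndal were called among them. Among the 1519 tested genes with a vehicle mean in the range of the members other than Aim2, the median was 0.41, 12.0% were called higher and 72.6% had a positive log2 fold change, against 51.1% positive over all tested genes.

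**Figure D1:**
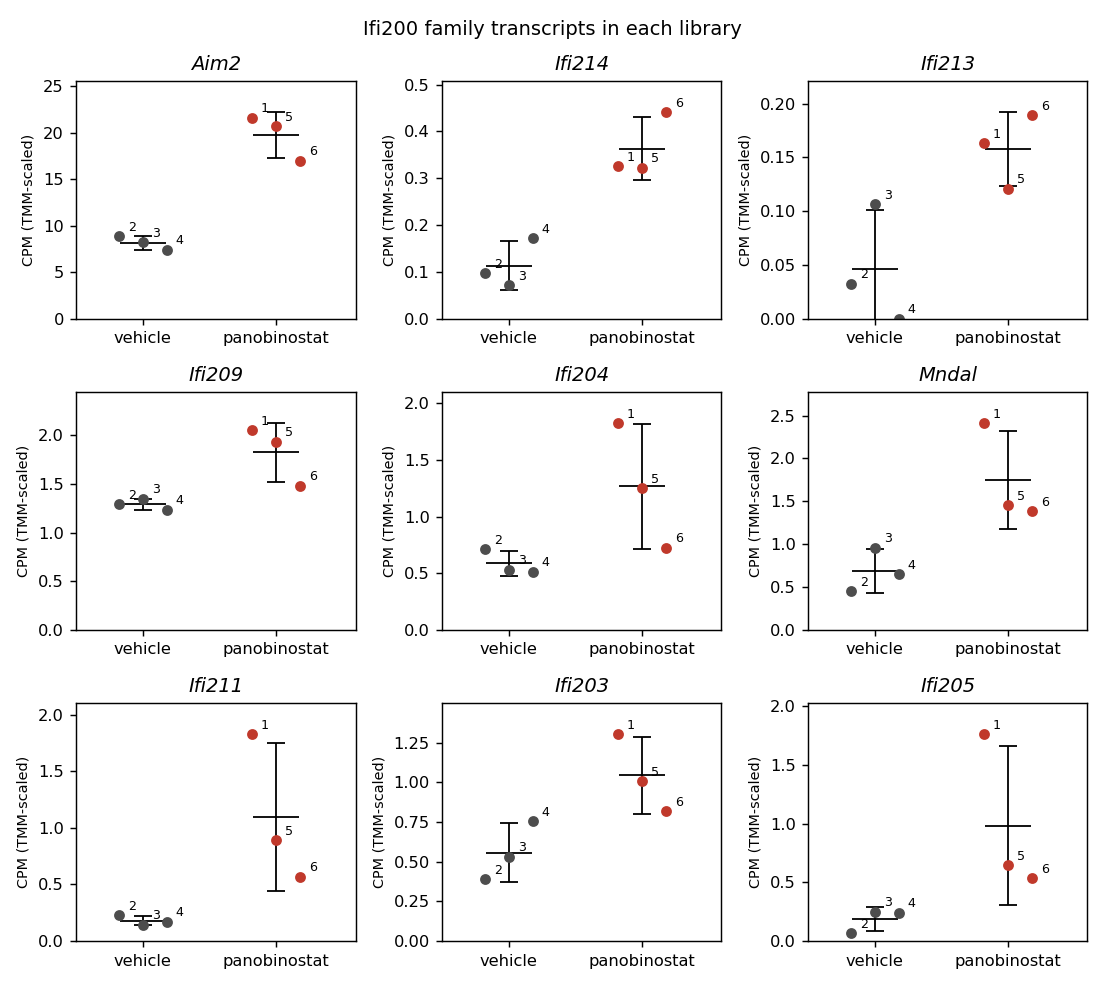
TMM-scaled CPM of the 9 Ifi200 rows in each library, with vehicle libraries in grey and panobinostat libraries in red, each point numbered by its library. Bars give the group mean and SD (n = 3), every axis starts at 0, and in each panel the 3 panobinostat points lie above the 3 vehicle points.

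Aim2, the inflammasome sensor (Entrez gene 383619; chromosome 1, 173349547 to 173466040, plus strand), was by far the most abundant member and the most evenly changed. It was counted 275, 232 and 216 times under vehicle and 663, 514 and 539 times under panobinostat. Scaled to library size these were 8.89, 8.23 and 7.40 CPM against 21.6, 20.7 and 17.0 CPM. No treated library stood out, and the groups lay far apart. Aim2 rose 2.42-fold, from 8.17 ± 0.743 to 19.8 ± 2.45 CPM (SD, n = 3 each; edgeR adjusted p = 0.0042). It was called in all 13 alternative fits, with adjusted p from 3.4e-11 in DESeq2 to 0.034 in edgeR without vehicle library 4, and its fold stayed between 2.30 and 2.59 when any 1 library was left out. The RefSeq span of Aim2 runs into that of Cadm3 on the opposite strand, but their annotated exons share 0 bases in GENCODE.

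Ifi211, also known as Mnda (Entrez gene 381308; 173896339 to 173913087, minus strand), had the largest fold of the tested members. It was counted 7, 4 and 5 times under vehicle and 56, 22 and 18 times under panobinostat. Its CPM values were 0.226, 0.142 and 0.171 against 1.83, 0.887 and 0.568. Library 1 was thus the highest. The groups were also apart without it, but Ifi211 passed the filter only through its panobinostat libraries. That separation was largely set by the filter and says little about library 1. Ifi211 rose 5.95-fold (log2 2.57 ± 0.54 SE, n = 3 each; edgeR adjusted p = 0.019) and 3.91-fold without panobinostat library 1 (adjusted p = 0.016). The call was lost without vehicle library 2 (edgeR adjusted p = 0.069), 3 (0.065) or 4 (0.086).

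Ifi205, historically D3 and a close relative of Ifi211 (Entrez gene 226695; 174011998 to 174031755, minus strand), went from 2, 7 and 7 counts under vehicle to 54, 16 and 17 under panobinostat. The CPM were 0.0646, 0.248 and 0.240 against 1.76, 0.645 and 0.536. Most of its signal came from panobinostat library 1. The other treated libraries were above every vehicle library, which the filter largely set, since Ifi205 passed it only through its panobinostat libraries. Ifi205 rose 5.30-fold (log2 2.41 ± 0.66 SE, n = 3 each; edgeR adjusted p = 0.040). Without panobinostat library 1 the fold was 3.18 and the edgeR adjusted p 0.052. The call was also lost without panobinostat library 5 (0.052) or vehicle library 2 (0.13), 3 (0.087) or 4 (0.12), and with limma-voom (0.052).

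Mndal, the MNDA-like gene (Entrez gene 100040462; 173857215 to 173880382, minus strand), had 14, 27 and 19 counts under vehicle and 74, 36 and 44 under panobinostat. These were 0.452, 0.958 and 0.651 CPM against 2.41, 1.45 and 1.39 CPM. As a ratio of the lowest panobinostat to the highest vehicle value, its groups came closer to each other than those of Aim2 or Ifi211. Mndal rose 2.55-fold (log2 1.35 ± 0.38 SE, n = 3 each), just inside the threshold at an edgeR adjusted p of 0.044. The call was lost whichever library was left out, with edgeR adjusted p from 0.061 without vehicle library 3 to 0.15 without vehicle library 4.

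Ifi204, the mouse gene usually set beside human IFI16 (Entrez gene 15951; 173747293 to 173767069, minus strand), was at 0.711, 0.532 and 0.514 CPM under vehicle. With panobinostat it was at 1.83, 1.25 and 0.725 CPM. Library 6 lay only just above the highest vehicle library. The log2 difference was 1.10 ± 0.40 (SE, n = 3 each; edgeR adjusted p = 0.088), and Ifi204 passed in 1 alternative, without panobinostat library 6 (0.047).

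Ifi203 (Entrez gene 15950; 173920400 to 173942866, minus strand) had 12, 15 and 22 counts under vehicle and 40, 25 and 26 under panobinostat. The groups were separated by a narrow margin, 0.754 CPM in vehicle library 4 against 0.820 CPM in panobinostat library 6. Its log2 difference was 0.90 ± 0.35 (SE, n = 3 each) with an edgeR adjusted p of 0.11.

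Ifi209, formerly Pyhin1 (Entrez gene 236312; 173630859 to 173647928, plus strand), was the steadiest member in vehicle, at 1.29, 1.35 and 1.23 CPM. The panobinostat libraries were at 2.05, 1.94 and 1.48 CPM. Its log2 difference, 0.50 ± 0.24 (SE, n = 3 each; edgeR adjusted p = 0.18), was the smallest of the tested members, and it passed in none of the 13 alternatives (0.16 to 0.40).

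Ifi213 and Ifi214 were barely detected. Ifi214 (Entrez gene 545384; 173521311 to 173535957, minus strand) had 3, 2 and 5 counts under vehicle and 10, 8 and 14 under panobinostat. Over the group sums, 10 against 32 counts, the ratio of panobinostat to vehicle was 3.24, with an exact 95% interval of 1.55 to 7.39 that covers counting error only. Ifi213 (Entrez gene 623121; 173566280 to 173599348, minus strand) had 1, 3 and 0 counts in vehicle and 5, 3 and 6 with panobinostat, a ratio of 3.55 (1.11 to 14.8), which became 9.65 without vehicle library 3 and 2.37 without vehicle library 4. The interval of Ifi213 reached below 1 without vehicle library 2 (0.857 to 16.7) or 4 (0.746 to 9.91). It also did so without panobinostat library 1 (0.981 to 15.6) or 6 (0.853 to 14.5). The groups of Ifi213 were apart only by library scaling, since vehicle library 3 and panobinostat library 5 both had 3 counts. Ifi213 and Ifi214, unlike the other members, were highest in panobinostat library 6, but within counting error of panobinostat library 1. The counts were 14 against 10 for Ifi214 and 6 against 5 for Ifi213, with overlapping exact intervals. In the edgeR fit without the low-count filter neither passed (adjusted p = 0.071 for Ifi214 and 0.24 for Ifi213).

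**Figure D2:**
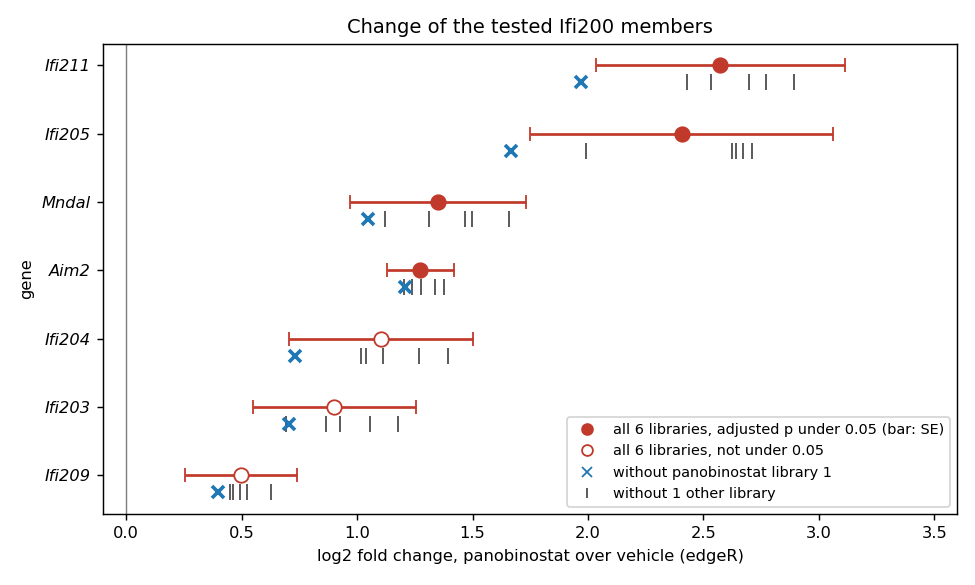
Log2 fold change of panobinostat over vehicle for the 7 tested Ifi200 members; circles with SE bars use all 6 libraries, filled where the edgeR adjusted p is under 0.05. Crosses and ticks show the value with 1 library left out; all lie above 0, and leaving out panobinostat library 1 lowers Ifi211 to 1.97 and Ifi205 to 1.67.

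Summed over the family, the signal was 12.1, 12.2 and 11.1 CPM under vehicle and 33.3, 28.3 and 23.1 CPM under panobinostat, with no overlap. A sum is unaffected by reads exchanged among the members, but not by those exchanged with copies outside it, such as Ifi208 (13.6% of the 50-base words of Ifi213) or Ifi203-ps (8.85% of those of Ifi203). No test was made on it. The means were 11.8 ± 0.588 and 28.3 ± 5.07 CPM (SD, n = 3 each), a ratio of 2.39. Aim2 made up most of the sum: its share of the family's counts was 64.9% (95% exact interval 61.9 to 67.9) in panobinostat library 1 and between 66.5% and 73.4% in the other libraries. Without Aim2 the sum went from 3.65 ± 0.345 to 8.48 ± 2.86 CPM, a ratio of 2.33. The ratio of the remaining rows was thus close to the 2.42-fold of Aim2, with a wider spread relative to the mean among treated libraries.

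Between genes, levels were compared as CPM per kilobase of exon, with exon lengths from GENCODE. In vehicle the order was Aim2 at 2.33 ± 0.212, Ifi209 at 0.364 ± 0.0160, Mndal at 0.189 ± 0.0701, Ifi204 at 0.164 ± 0.0306, Ifi211 at 0.101 ± 0.0240 and Ifi203 at 0.0832 ± 0.0275 (SD, n = 3). Ifi205, Ifi214 and Ifi213 followed at 0.0441, 0.0139 and 0.00676. Aim2 was 6.41 times the next gene, and Ifi209 did not overlap the genes on either side of it. Mndal and Ifi204 overlapped, and so did each neighbouring pair from Ifi211 down to Ifi213. With panobinostat Ifi211 stood second at 0.613 ± 0.366 CPM per kb, where it overlapped Ifi209 at 0.514 ± 0.0851. Each neighbouring pair from Ifi211 to Ifi203 overlapped there, so only the first place of Aim2 and the last places of Ifi214 and Ifi213 were clear of their neighbours.

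**Figure D3:**
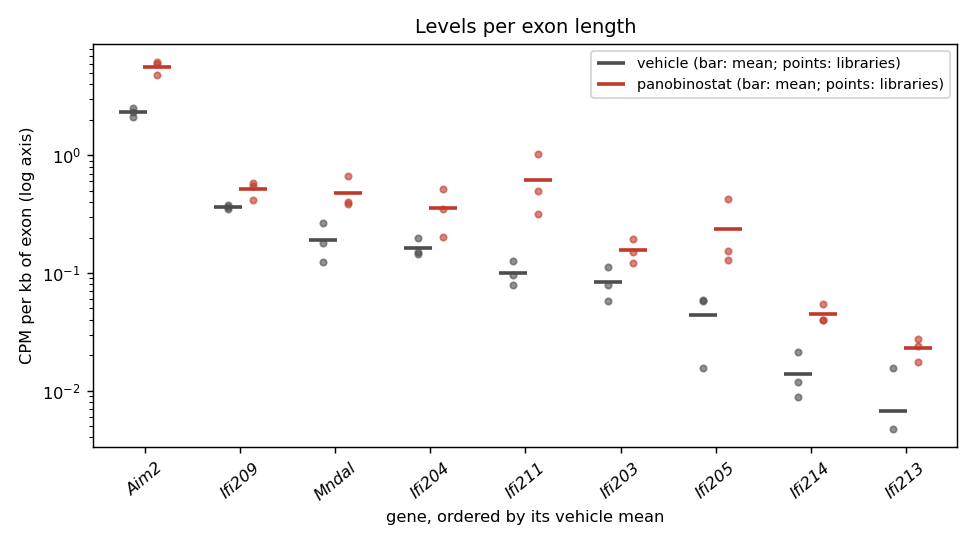
CPM per kilobase of exon (log axis) of the 9 Ifi200 rows, ordered by vehicle mean; bars are group means and points are libraries, with the library that had 0 counts of Ifi213 not drawn. Aim2 stands at 2.33 in vehicle and 5.65 with panobinostat, above every other member in both groups.

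Similar copies limit how well reads can be assigned. Of the distinct 50-base words in the GENCODE transcripts of Ifi211, 72.8% also occurred in another gene; 44.7% of its words were found in Ifi205 and 30.1% in Ifi204. The share was 33.7% for Ifi209, nearly all of it with Ifi214, and 20.0% for Ifi204, 19.6% for Mndal, 18.6% for Ifi205, 15.6% for Ifi213, 14.6% for Ifi214 and 12.4% for Ifi203. Aim2 shared only 0.742%, so its count is the one least open to exchange with relatives. With 100-base words the share was still 56.9% for Ifi211 and 15.0% for Ifi205. The sources used here do not give how reads with several placements were counted. Taken as a pair, Ifi205 and Ifi211 went from 9, 11 and 12 counts under vehicle to 110, 38 and 35 under panobinostat. The pair's ratio was 5.79 (exact 95% interval 3.96 to 8.72, counting error only) and is independent of how reads were split within the pair. It is not independent of reads exchanged with genes outside the pair, such as Ifi204 or Mndal, which held 17.1% of the words of Ifi211. Both genes of the pair passed the filter only through their panobinostat libraries, so the ratio is a description only. Without panobinostat library 1 the pair's ratio was 3.57 (2.32 to 5.58), 73 counts against 32.

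The other family genes of the cluster were fixed as a list, of which 3 were not already members under another name and had a row. None of them passed in edgeR with all libraries. Ifi208 (formerly Pydc3) was at 0.207 ± 0.0997 and 0.487 ± 0.0822 CPM (SD, n = 3 each), with groups that did not overlap (edgeR adjusted p = 0.081; 0.035 with limma-voom and sample weights). Ifi207 was at 0.418 ± 0.125 and 0.956 ± 0.493 CPM with overlapping groups (edgeR adjusted p = 0.14), and it passed without panobinostat library 6 (0.047). Ifi202b, whose level is known to differ between mouse strains, had 0 counts in all 6 libraries. That allows up to 0.0340 CPM in vehicle and 0.0344 CPM with panobinostat at 3 counts over a group, for counting error only. The pseudogene Ifi203-ps had 6 counts in vehicle and 16 with panobinostat.

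Genes beside the cluster also changed. On the Aim2 side, Cadm3, a cell adhesion gene, rose from 4.40 ± 1.28 to 23.1 ± 12.1 CPM and Ackr1, the atypical chemokine receptor of red cells and venules, from 3.34 ± 0.803 to 15.9 ± 5.83 CPM (SD, n = 3 each; edgeR adjusted p = 0.010 and 0.0068). The call of Cadm3 was lost without vehicle library 2 or vehicle library 4 (highest edgeR adjusted p 0.058). Fcer1a, the IgE receptor alpha chain, did not pass, at 12.2 ± 6.42 against 39.0 ± 31.9 CPM (edgeR adjusted p = 0.16; 0.011 without panobinostat library 1), and its fold was 1.91 without panobinostat library 5 against 3.19 with all libraries. On the Ifi205 side lay the olfactory receptor genes Olfr433, Olfr424, Olfr421-ps1 and Olfr420, with 1, 3, 9 and 44 counts in all, and on the Aim2 side Mptx2 and Crp had 2 counts each; these 6 were not tested. Cadm3 and Ackr1, at 5.24-fold and 4.74-fold, had higher folds than Aim2 beside them.

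**Figure D4:**
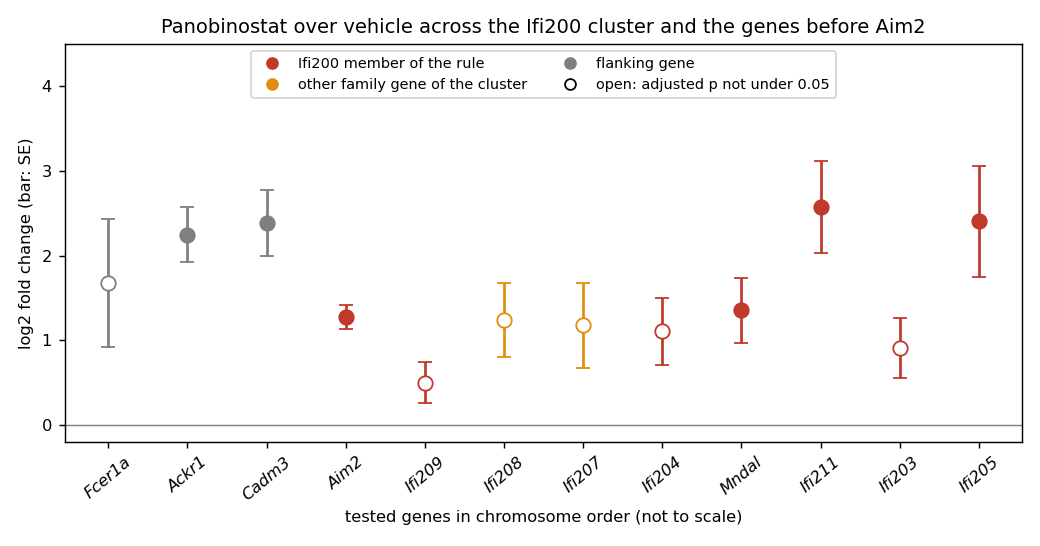
Log2 fold change with SE for the tested genes from Fcer1a to Ifi205 in chromosome order, spaced evenly and not to scale. Family genes are red (members) and orange, flanking genes grey, and open circles did not pass; Ifi211 at 2.57 is the highest and Ifi209 at 0.50 the lowest.

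The core partners of AIM2 in the inflammasome were not among the called genes. Pycard, the adaptor, was at 29.6 ± 1.81 CPM in vehicle and 29.7 ± 6.51 CPM with panobinostat (SD, n = 3 each; edgeR adjusted p = 0.98), a difference whose sign changed between settings. Casp1, the protease, was too low to test, at 0.161 ± 0.0888 and 0.201 ± 0.0720 CPM. Of 10 tested genes on the inflammasome list 4 rose and 0 fell, with a median log2 fold change of 0.26. They were Naip5 (1.87-fold) and Naip2 (1.40-fold), which sense bacterial proteins, the interleukin-18 inhibitor Il18bp (1.79-fold) and the initiator caspase Casp8 (1.31-fold), with edgeR adjusted p from 0.0093 to 0.049. All 4 calls were lost without vehicle library 2 or vehicle library 4, that of Il18bp whichever library was left out, and that of Casp8 in all but the omission of panobinostat library 1 (edgeR adjusted p up to 0.18 for Casp8). Il18bp and Casp8 also lost the call with library size alone and without a filter, and Casp8 with RLE scaling and limma-voom.

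Of 24 tested genes of DNA sensing and nucleic acid removal 5 rose and 3 fell, and the median log2 fold change was -0.08. Irf7, the amplifier of the interferon response, rose 12.8-fold, Adar, which edits double-stranded RNA, 2.49-fold, and Samhd1, which removes deoxynucleotides, 1.85-fold (edgeR adjusted p = 0.0034, 0.0036 and 0.0068). Ripk3, a kinase of necroptosis, fell from 157 ± 13.8 to 108 ± 8.21 CPM (SD, n = 3 each; edgeR adjusted p = 0.015), a call lost without vehicle library 3 or vehicle library 4. Cgas, the other cytosolic DNA sensor, was at 49.6 ± 4.68 and 45.4 ± 4.10 CPM (edgeR adjusted p = 0.45). Sting1, the adaptor downstream of it, was at 29.5, 32.4 and 26.6 CPM under vehicle and at 6.62, 26.7 and 17.9 CPM under panobinostat (edgeR adjusted p = 0.22; 0.040 with limma-voom and sample weights). Its lowest value thus fell in the library where most Ifi200 members were highest.

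Other interferon-stimulated genes had larger folds as a list, a difference that was not tested. All 22 tested genes of that list rose, with a median log2 fold change of 2.52 against 1.27 for the tested members. Ddx58 (RIG-I, 5.82-fold), Oas3 (5.98-fold) and the ubiquitin-like Isg15 (15.6-fold, 10.3-fold without panobinostat library 1) were among those with the smallest p (edgeR adjusted p from 0.0014 to 0.0041). The order of the treated libraries was the same for both lists. The 7 tested members averaged 1.78, 1.20 and 0.83 above the vehicle mean on the log2 scale in panobinostat libraries 1, 5 and 6, and the interferon-stimulated genes 2.98, 2.40 and 1.93. Among all 9 rows, 7 were highest in panobinostat library 1. Of the interferon receptor and interferon genes 4 were tested and Ifnar1, a chain of the type I receptor, rose 1.39-fold (edgeR adjusted p = 0.030), a call lost on leaving out panobinostat library 5 or any vehicle library (up to 0.13).

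**Figure D5:**
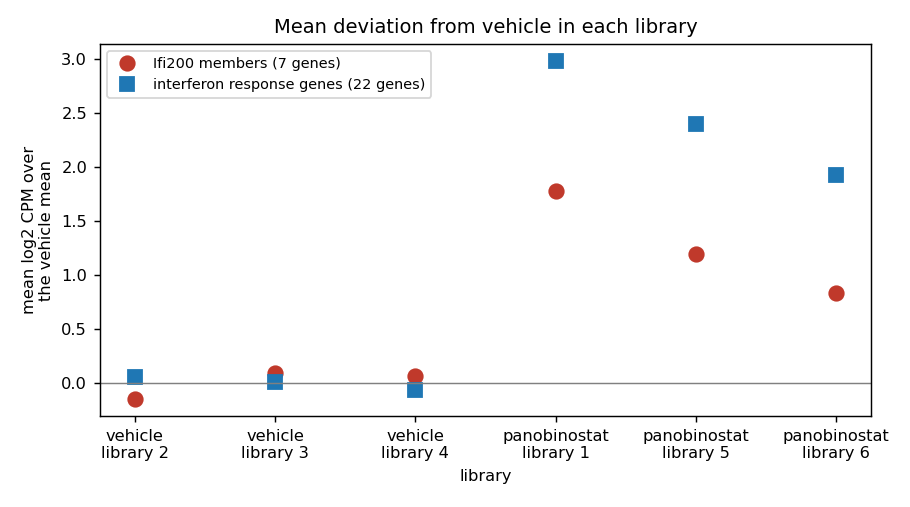
Mean log2 CPM over the vehicle mean in each library, for the 7 tested Ifi200 members (circles) and 22 interferon-stimulated genes (squares). Vehicle libraries lie near 0, and both lists fall from panobinostat library 1 (1.78 and 2.98) through library 5 to library 6 (0.83 and 1.93).

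Markers of blood cell types moved in part with these values. In bulk RNA, their transcripts in the leukemia cells and in other cells of the sort cannot be told apart. The 12 macrophage markers summed to 18.6, 11.8 and 15.1 CPM under vehicle and to 51.8, 27.5 and 16.6 CPM under panobinostat. That is the same order of treated libraries as for most members, with overlapping groups. Of the 11 tested macrophage markers all had a positive log2 fold change, with a median of 1.29. Over all tested genes 51.1% were positive, and 72.6% at the low vehicle levels of the members other than Aim2. Among the macrophage markers 2 rose, the Fc receptor gene Fcgr1 and the adhesion gene Vcam1, and none of the 12 was at 0 in all libraries. The 10 erythroid markers found summed to between 5466 and 6513 CPM in vehicle and to 50962, 25397 and 22645 CPM under panobinostat, again highest in library 1 and lowest in library 6, and 6 of the 10 rose. B cell markers (9 genes) summed to between 4.43 and 7.75 CPM in vehicle and between 5.61 and 10.4 CPM with panobinostat, and 0 of 7 tested passed. Monocyte markers (8 genes) summed to at most 15.4 CPM under vehicle and at least 18.2 CPM under panobinostat, and 1 of 5 tested rose. Conventional dendritic cell markers (7 genes) summed to 11.1 CPM or more under vehicle. Under panobinostat they summed to between 18.1 and 24.4 CPM, above every vehicle library. The single genes were mixed: of 5 tested, 2 rose (Zbtb46 and Clec9a), 1 fell (Clec10a) and 3 had a positive log2 fold change. The monocyte and conventional dendritic cell sums were both highest in panobinostat library 5. The summed levels of plasmacytoid dendritic, T, NK and neutrophil markers overlapped between the groups, and so did those of mast cells and basophils. The part of other cells, if any were present, in the change of the Ifi200 genes was not tested.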

How the data were processed

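RNA from 6 libraries of sorted leukemia cells, 3 per group, was analysed. The authors deposited raw counts, 1 row for each Entrez gene ID. The submitters' processing notes name cutadapt 2.1, HISAT2 2.1.0, featureCounts (Subread 2.0.0) and build mm10, with no role or order. The annotation and the strand setting were not given in the sources used here. RefSeq (GRCm38.p6, the assembly of mm10) named 25275 of 27179 rows. Columns name a group but no replicate, and 0 columns were unused.

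Genes were filtered with filterByExpr, scaled by TMM and tested with edgeR 4.0.16 (R 4.3.3; quasi-likelihood F test, treatment as the only term), with Benjamini-Hochberg adjustment over 12916 genes and a threshold of 0.05. The script was tested on simulated data. SE was taken as |log2 fold change| over the root of the F statistic. CPM are TMM-scaled. Exon lengths, shared words and exon overlap come from GENCODE M21, promoters from RefSeq. Proteins were not compared.

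Members and gene lists were chosen with earlier results of these data known. Named were all members, cluster genes with counts, up to 4 called genes with the smallest p per list, Pycard, Casp1, Cgas, Sting1 and Irf7, the 5 nearest genes with counts on each side, and the 5 genes most like the members; some genes that this rule names are not reported here. Alternatives covered DESeq2 1.42.0, limma-voom (limma 3.58.1) with and without sample weights, 2 other scalings, 2 other filters and leaving out each library. With 3 libraries against 3, an exact permutation test cannot go below p = 0.1, so none was used.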

Additional observations from a re-analysis of the deposited data

How the results depend on the processing

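Aim2, Ifi211, Ifi205 and Mndal were called with RLE scaling, library size alone, no filter, DESeq2 and limma-voom with sample weights, and all but Ifi205 with limma-voom. The stricter filter of 1 CPM in 3 libraries left 3 members to test, and 2 were called. When 1 library was left out, between 1 and 4 members were called: 1 (Aim2) without vehicle library 2, 3 or 4, 2 (Aim2 and Ifi211) without panobinostat library 1 or 5, and 4 without panobinostat library 6, where Ifi204 was called and Mndal was not. Ratios of low counts without 1 library and the median of genes at like levels were chosen after seeing the data. The number of genes called, 2715 with all libraries, lay between 438 (without vehicle library 4) and 4056 (without panobinostat library 1) under the same omissions, was 4520 with limma-voom and sample weights, and was 3566 with DESeq2. Scaling by library size alone called 1135 genes higher and 2065 lower (1460 and 1255 with TMM) and moved the median log2 fold change from 0.01 to -0.10, with Aim2 at 1.16 in place of 1.27. The log2 ratio of the summed members was 1.26, and between 1.12 and 1.38 with 1 library left out. Over all alternatives 71 of 87 member values kept their side of the threshold, 15 lost the call, 1 gained it and 0 changed sign. Of the other named genes only Pycard changed sign: -0.10 with library size alone, -0.011 without a filter, -0.0070 with limma-voom and -0.10 with sample weights, and between -0.18 (without panobinostat library 1) and 0.13 (without panobinostat library 5) with 1 library left out. No paired analysis was possible because the columns carry no replicate number that matches the labels. Members other than Aim2 had at most 74 counts in a library, which limits the precision of their folds.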

Other observations

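Genes whose proteins have been described as partners or targets of Ifi200 proteins were fixed as a list, and 11 were tested, with 3 higher and 2 lower. The retinoblastoma gene Rb1 rose 1.57-fold and Mdm2, which degrades p53, 1.85-fold, with Cdkn1a as the third (edgeR adjusted p = 0.024 and 0.026 for the first pair). The nucleolar genes Npm1 and Ncl fell, from 1401 ± 61.0 to 921 ± 107 CPM and from 1452 ± 113 to 1054 ± 106 CPM (SD, n = 3 each; edgeR adjusted p = 0.014 and 0.030). Each of these 4 calls was lost without vehicle library 4 (highest edgeR adjusted p over the omitted libraries 0.11). The median log2 fold change of the list was -0.04.

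Among tested genes averaging 1 CPM or more, those whose pattern over the 6 libraries was most like the mean of the 7 tested members were Ddx25, Ccnd3, Smim5, Rabgef1 and Gm10509, out of 11432. Pearson's r of log2 CPM was between 0.997 and 0.999. The 6 points fall into 2 treatment groups of 3, and the value is a description only. Ccnd3, cyclin D3, was 2.01-fold higher (edgeR adjusted p = 0.0098), and Ddx25, an RNA helicase known from testis, did not pass (0.095).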
